A study of Mus musculus with 6 samples.

Results

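Genes of the liver X receptors (LXRs), of oxysterol synthesis and of cholesterol efflux were examined in hypoxic cardiomyocyte cultures treated with vehicle or β-sitosterol (β-SITO). The set was chosen by gene name and held 10 genes (Nr1h2, Nr1h3, Abca1, Abcg1, Mylip, Ch25h, Cyp27a1, Soat1, Lpcat3 and Apoe) of the 57010 rows in the deposited count table. All 10 passed the filter on low counts, which left 14799 genes for testing. The samples were 6 RNA-seq libraries of primary neonatal mouse cardiomyocytes (NMCMs), with 3 libraries named V1 to V3 (HO + Vehicle) and 3 named T4 to T6 (HO + β-SITO). All 6 came from cells kept under hypoxia (HO), so both groups share that stress, and no normoxic library was analysed here. Per the study's methods, the cells came from C57BL/6 mice aged 1 to 3 days and were separated from fibroblasts only by differential adhesion. β-SITO is a plant sterol that differs from cholesterol by an ethyl group on its side chain, and its dose and exposure time for these libraries are not given in the sources used here. The comparison asked which transcripts differed when hypoxic NMCMs received β-SITO in place of vehicle.

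LXRα, encoded by Nr1h3, and LXRβ, encoded by Nr1h2, are nuclear receptors that bind DNA together with a retinoid X receptor (RXR) and are activated by oxysterols, which are oxidized forms of cholesterol. When cholesterol is plentiful they switch on genes that move cholesterol out of the cell, among them the transporters Abca1 and Abcg1 and the lipoprotein component Apoe, and Mylip, whose product (IDOL) marks receptors of the lipoprotein uptake pathway for degradation. Macrophages and other cells of the heart use this pathway to unload sterol, and Ch25h is also known as a gene that interferon induces.

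Total counts per library ran from 16694734 to 17082129 with vehicle and from 16962152 to 18460522 with β-SITO. The labelled cell type was checked against its markers. All 14 cardiomyocyte markers were detected, with a summed level of 6602 to 7690 CPM (read counts scaled to library size with TMM factors) with vehicle and 5830 to 9938 CPM with β-SITO. The 10 fibroblast markers summed to 38660 to 41210 CPM and 54970 to 56540 CPM, so more reads fell on them than on the cardiomyocyte markers in every library. These sums were not divided by gene length. Library T4 stood apart, with the lowest level of its group for 14 of 14 cardiomyocyte markers. By the rule for calls given below, 12.8% of all genes tested were called higher and 10.1% lower with β-SITO. Of the 14 cardiomyocyte markers, 3 were called higher and 0 lower, and of the 10 fibroblast markers 1 and 0. Of 16 macrophage markers, 10 were called higher and 2 lower with β-SITO, with summed levels of 1475 to 1615 CPM against 3078 to 3781 CPM. Among the 15 macrophage markers that passed the filter on low counts in both groups, 9 were called higher and 2 lower. Of 10 endothelial markers, 9 were called higher and 1 lower, with summed levels of 689.5 to 810.1 CPM against 957.2 to 1007 CPM. Of 8 smooth muscle and pericyte markers, 4 were called higher and 0 lower, with summed levels of 1101 to 1194 CPM against 1895 to 2149 CPM. No marker of these lists was at 0 in all libraries. In such bulk RNA, fewer cells of a type and less RNA per cell cannot be told apart, and the part that cell composition plays in the results was not tested. In the deposited counts, the column names of the β-SITO libraries end in the letter C, which those of the vehicle libraries lack. Any difference in how the libraries of the groups were prepared therefore cannot be told apart from β-SITO itself.

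A gene was called when it differed by over 2-fold and its adjusted p was under 0.05 (edgeR's quasi-likelihood test, Benjamini-Hochberg adjustment over all genes tested). By this rule 3 of the 10 genes (Cyp27a1, Apoe and Mylip) rose and 2 (Ch25h and Nr1h3) fell with β-SITO. Among all genes tested, 22.8% were called, 12.8% as higher and 10.1% as lower. At an adjusted p under 0.05 alone all 10 genes passed, 5 higher and 5 lower, where 66.8% of all genes tested did so, 33% as higher and 33.8% as lower. The median log2 fold change was 0.07 over the 10 genes and -0.01 over all genes tested. The former moved between 0.015 (without T4) and 0.12 (without V3) when 1 library was left out, by more than 1.5 times for each of the 6 libraries, and was 0.22 with library size only. As shown in the plot of levels by library, the groups did not overlap for 9 of the 10 genes (5 higher and 4 lower), against 70.5% of all genes tested (34.8% higher and 35.8% lower). Besides, 7 of the 10 log2 fold changes lay between the 5th and the 95th percentile of all genes tested, and Cyp27a1, Apoe and Ch25h lay outside this range.

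**Figure D1:**
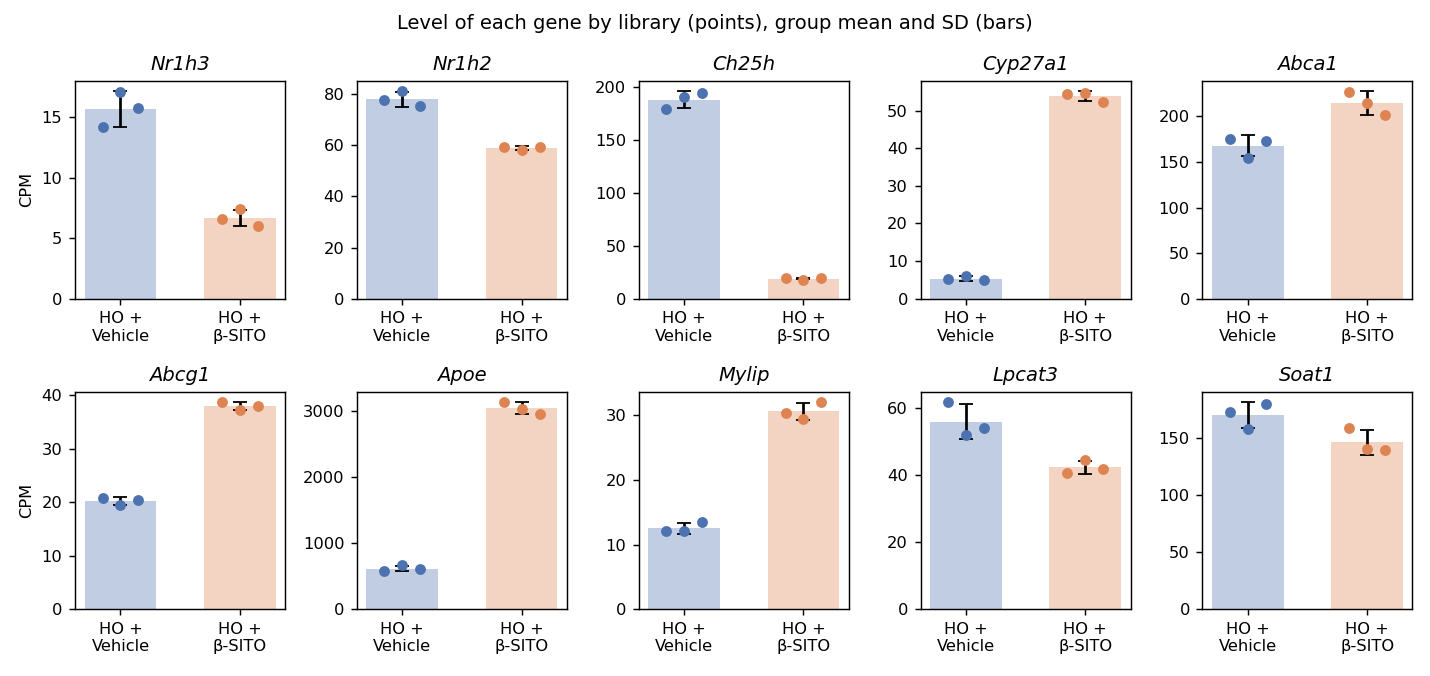
Level of each of the 10 genes in CPM (vertical axes, each starting at 0 and scaled separately) in the HO + Vehicle and HO + β-SITO groups, with a point for each of the 3 libraries of a group, bars for group means and error bars for the SD. Ch25h and Cyp27a1 moved in opposite directions by about 10-fold (9.86-fold and 10.1-fold), and the groups overlapped only for Soat1.

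**Figure D2:**
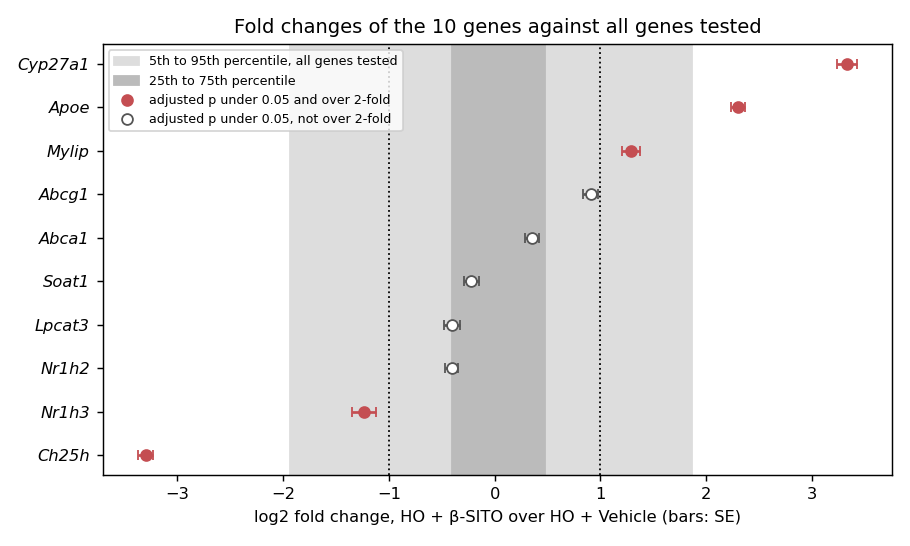
Log2 fold change of each gene (points, with bars for the SE), HO + β-SITO over HO + Vehicle, on shading for the percentile ranges of all 14799 genes tested and dotted lines at a change of 2-fold. Filled points mark the 5 genes called, and Cyp27a1 (3.33), Apoe (2.30) and Ch25h (-3.30) lay outside the 5th to 95th percentile range of -1.93 to 1.86.

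Firstly, the genes for enzymes that make side-chain oxysterols were the ones with the largest differences. Ch25h, cholesterol 25-hydroxylase, is a gene without introns that makes the oxysterol named after it. It lies on the minus strand of chromosome 19 from 34451178 to 34452564 in the deposited coordinates (build GRCm39 per the submitters' processing notes). Cyp27a1, the mitochondrial sterol 27-hydroxylase, lies on the plus strand of chromosome 1 from 74752733 to 74777051. The window around each start site, 250 bases before to 50 after, is shown for both because these genes moved furthest in opposite directions. The sequences are from RefSeq (build GRCm38.p6), at chr19:34475099-34475398 on the minus strand and chr1:74713285-74713584 on the plus strand.
Ch25h: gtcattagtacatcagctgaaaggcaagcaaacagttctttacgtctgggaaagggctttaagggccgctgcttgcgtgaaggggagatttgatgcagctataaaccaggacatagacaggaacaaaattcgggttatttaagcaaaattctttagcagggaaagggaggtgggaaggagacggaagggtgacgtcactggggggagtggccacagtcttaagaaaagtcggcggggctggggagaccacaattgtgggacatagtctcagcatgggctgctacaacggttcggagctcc
Cyp27a1: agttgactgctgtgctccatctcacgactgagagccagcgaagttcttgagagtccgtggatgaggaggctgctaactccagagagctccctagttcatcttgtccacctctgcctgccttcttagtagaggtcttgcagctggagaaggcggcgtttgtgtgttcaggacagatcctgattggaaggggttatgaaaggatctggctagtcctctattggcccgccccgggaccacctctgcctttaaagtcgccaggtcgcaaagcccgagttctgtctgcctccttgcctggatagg

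Ch25h had 178.8, 190.3 and 193.9 CPM in V1 to V3 and 19.8, 18.1 and 19.2 CPM in T4 to T6. Every HO + β-SITO library lay far below every HO + Vehicle library. The fall was 9.86-fold (log2 fold change -3.30, SE 0.07, adjusted p = 1.51e-15). The gene Gm26902 overlaps Ch25h on the opposite strand, with at most 126 counts in any vehicle library and 38 in any β-SITO library, against 2831 to 3128 and 322 to 385 counts of Ch25h itself. The strand setting of the counting is not given in the sources used here, so reads of this pair may not be separated. Among 13534 other genes with a mean of at least 20 counts, those closest to Ch25h by the root mean square difference of centred log2 CPM over the 6 libraries were Fas (0.04), Aldh1a2 (0.05) and Samhd1 (0.05).

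In contrast, Cyp27a1 had 5.12, 6.02 and 4.90 CPM in V1 to V3 and 54.4, 54.8 and 52.4 CPM in T4 to T6. All 3 HO + β-SITO libraries lay close together and above all HO + Vehicle libraries. The rise was 10.1-fold (log2 fold change 3.33, SE 0.09, adjusted p = 5.59e-14), which placed Cyp27a1 at the 99.0th percentile of all log2 fold changes and Ch25h at the 2.71st. To compare the levels of the 2 enzymes, CPM was divided by exon length in kb. On this scale Ch25h exceeded Cyp27a1 by 55.4 ± 6.27 times in the HO + Vehicle group, while Cyp27a1 exceeded Ch25h by 1.81 ± 0.105 times with β-SITO (SD, n = 3). The order of the 2 enzymes was thus opposite in the groups, in every library.

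Next, the receptors were examined. Nr1h3 (LXRα) lies on the minus strand of chromosome 2 from 91014406 to 91033179, and Nr1h2 (LXRβ) on the minus strand of chromosome 7 from 44199040 to 44203375. Nr1h3 had 14.2, 17.1 and 15.7 CPM in V1 to V3 and 6.58, 7.36 and 6.04 CPM in T4 to T6. Each HO + β-SITO library was below each HO + Vehicle library, and the level fell 2.35-fold (log2 fold change -1.23, SE 0.12, adjusted p = 1.49e-07). Nr1h2 had 77.8, 81.1 and 75.4 CPM in V1 to V3 and 59.4, 58.0 and 59.3 CPM in T4 to T6. Its groups did not overlap either, but the log2 fold change of -0.41 (SE 0.06, adjusted p = 2.06e-05) did not reach 2-fold. Per kb of exon, Nr1h2 was above Nr1h3 by 3.76 ± 0.313 times in the HO + Vehicle group and by 6.68 ± 0.732 times with β-SITO (SD, n = 3). The size of this ratio depended on the gene lengths used, and with the exons of the basic annotation it was 5.37 ± 0.448 and 9.54 ± 1.04 times (SD, n = 3). Genes with profiles closest to that of Nr1h3 were Cebpb, Pde10a and Gpm6b (root mean square difference 0.07 for each).

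Both RXR genes that could be tested were higher at an adjusted p under 0.05, whereas both LXR genes were lower. Rxra, which encodes the RXRα partner, had 82.8, 75.2 and 79.9 CPM against 156.3, 146.4 and 147.2 CPM (log2 fold change 0.92, SE 0.06, adjusted p = 2.28e-09), while Rxrb differed by 0.40 on the same scale (adjusted p = 1.77e-04). Neither reached 2-fold. Rxrg was at 0.57 CPM or less in every library and was not tested. Of the 12 tested genes on a list of LXR partners, coregulators and related receptors, 1 was called higher (Pparg, a nuclear receptor of fat storage, log2 fold change 1.72, from 1.49 to 2.21 CPM up to 5.70 to 6.30 CPM) and 0 lower. At an adjusted p under 0.05 alone, 9 were higher and 1 lower. Over all genes tested, 12.8% were called higher and 10.1% lower, and 33% were higher and 33.8% lower at an adjusted p under 0.05 alone.

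Subsequently, the genes of cholesterol efflux were compared. Abca1, which loads cholesterol and phospholipid onto apolipoprotein, lies on the minus strand of chromosome 4 from 53030787 to 53159895. The RefSeq window around its start site (GRCm38.p6, chr4:53159846-53160145, minus strand) is shown because Abca1 is the textbook LXR target.
Abca1: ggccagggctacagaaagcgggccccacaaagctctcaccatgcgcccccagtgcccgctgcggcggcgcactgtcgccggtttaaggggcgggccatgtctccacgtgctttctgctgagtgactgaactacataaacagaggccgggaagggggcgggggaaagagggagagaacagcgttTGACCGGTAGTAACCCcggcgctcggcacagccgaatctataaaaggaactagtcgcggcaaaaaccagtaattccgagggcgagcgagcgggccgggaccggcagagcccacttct

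The LXR element, called DR4, was searched as a repeat of the hexamer AGGTCA in the same orientation with any 4 bases between, on both strands. With at most 2 mismatches, no match was found in the 12 windows of the 9 members that were in the RefSeq table (Abcg1 was the other one), where 3.02% of all 32851 windows held one. With at most 3 mismatches, a limit chosen after that result was seen, the Abca1 window held a match on the strand opposite to the gene from -67 to -52 relative to the start site, in capitals above, where 21.9% of all windows held one. The core of the interferon-stimulated response element (GAAA repeated with any 2 bases between, 3.44% of all windows), the STAT site TTCNNNGAA (8.3%) and the sterol regulatory element TCACNCCAC (1.24%) had no match in the 12 windows. These searches cover only the letters of these short windows.

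Abca1 had 175.5, 154.8 and 173.2 CPM in V1 to V3 and 227.4, 214.8 and 201.5 CPM in T4 to T6. The groups did not overlap, and the log2 fold change was 0.35 (SE 0.07, adjusted p = 2.24e-04), a rise of 1.28-fold. Tbc1d5, Rcor3 and Wdfy3 had the closest profiles, with a root mean square difference of 0.02 for each. Abcg1, which passes cholesterol on to HDL, lies on the plus strand of chromosome 17 from 31276649 to 31336962. It had 20.8, 19.5 and 20.5 CPM in V1 to V3 and 38.8, 37.3 and 38.0 CPM in T4 to T6. Its libraries were tightly grouped, and its log2 fold change of 0.91 (SE 0.07, adjusted p = 2.39e-08) was just under 2-fold. With library size only or the upper quartile in place of TMM, which moved all log2 fold changes up by a median of 0.15 and 0.14, Abcg1 was called at 1.06 and 1.05.

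Apoe, the apolipoprotein that accepts effluxed cholesterol and is made in large amounts by macrophages, lies on the minus strand of chromosome 7 from 19430034 to 19433113. It had 583.4, 666.4 and 609.4 CPM in V1 to V3 and 3142, 3041 and 2963 CPM in T4 to T6. Every library treated with β-SITO lay above every vehicle library, and the rise was 4.92-fold (log2 fold change 2.30, SE 0.07, adjusted p = 1.13e-13). The share of all counts taken by Apoe was 0.0552% to 0.0637% with vehicle and 0.311% to 0.331% with β-SITO. By raw counts it moved from rank 199 to 237 among all genes to rank 14 to 16. Among the 16 macrophage markers, the log2 fold changes of Cd163 (5.19), Mrc1 (4.79) and Cx3cr1 (3.86) were above that of Apoe, and those of the others ran from -2.18 (Fcgr1) to 1.70 (C1qa). Cd163 passed the filter on low counts only through the β-SITO libraries, so its call could only be a higher one. The part of these markers in the rise of Apoe was not tested.

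For the remaining members, Mylip rose, and Lpcat3 and Soat1, of phospholipid and cholesterol acylation, showed smaller decreases. Mylip lies on the plus strand of chromosome 13 from 45543218 to 45565498, and had 12.1, 12.1 and 13.5 CPM in V1 to V3 and 30.4, 29.4 and 32.1 CPM in T4 to T6. No library overlapped, and the rise was 2.44-fold (log2 fold change 1.29, SE 0.08, adjusted p = 2.46e-09). Vldlr and Lrp8, which encode known IDOL substrates, did not reach 2-fold, with log2 fold changes of 0.32 for Vldlr (adjusted p = 0.0027) and -0.72 for Lrp8 (adjusted p = 4.26e-05). The counts measure transcripts, whereas IDOL acts on the receptor proteins, which were not measured in these libraries.

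Lpcat3, which remodels membrane phospholipids and is another LXR target, lies on the plus strand of chromosome 6 from 124639990 to 124681381. It had 61.7, 51.8 and 54.0 CPM in V1 to V3 and 40.6, 44.5 and 41.8 CPM in T4 to T6, without overlap (log2 fold change -0.40, SE 0.08, adjusted p = 2.33e-04). The gene Emg1 overlaps Lpcat3 on the opposite strand, with up to 751 and 754 counts in the groups. Soat1, which esterifies cholesterol for storage, lies on the minus strand of chromosome 1 from 156252095 to 156301901. It had 172.2, 157.7 and 179.7 CPM in V1 to V3 and 158.3, 140.4 and 138.9 CPM in T4 to T6. T4 lay above V2, so the groups overlapped, and the log2 fold change of -0.22 (SE 0.07, adjusted p = 0.0102) was the smallest of the 10. It no longer passed at an adjusted p under 0.05 with library size only (0.367), with the upper quartile (0.332), or without V3 (0.0976), T5 (0.0944) or T6 (0.0796).

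Ordered by CPM per kb of exon, Apoe was the highest in both groups, at 289.9 ± 19.9 in the HO + Vehicle group and 1426 ± 42.1 with β-SITO (SD, n = 3). In the HO + Vehicle group it was followed by Ch25h (135.3), Nr1h2 (23.3), Soat1 (17.4), Lpcat3 (17.1), Abca1 (16.2), Nr1h3 (6.22), Mylip (3.88), Abcg1 (2.78) and Cyp27a1 (2.46). Neighbouring ranges overlapped between Soat1 and Lpcat3, Lpcat3 and Abca1, and Abcg1 and Cyp27a1. In the HO + β-SITO group the order after Apoe was Cyp27a1 (24.8), Abca1 (20.7), Nr1h2 (17.6), Soat1 (14.9), Ch25h (13.7), Lpcat3 (12.9), Mylip (9.47), Abcg1 (5.21) and Nr1h3 (2.65), with overlap only between Soat1 and Ch25h and between Ch25h and Lpcat3. Cyp27a1 thus went from the last place to the second, Ch25h from the second to the sixth, and Nr1h3 from the seventh to the last. These places rest on the exon lengths of the full annotation. The order was not repeated with the basic annotation, which moved the ratio of Nr1h2 to Nr1h3.

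**Figure D3:**
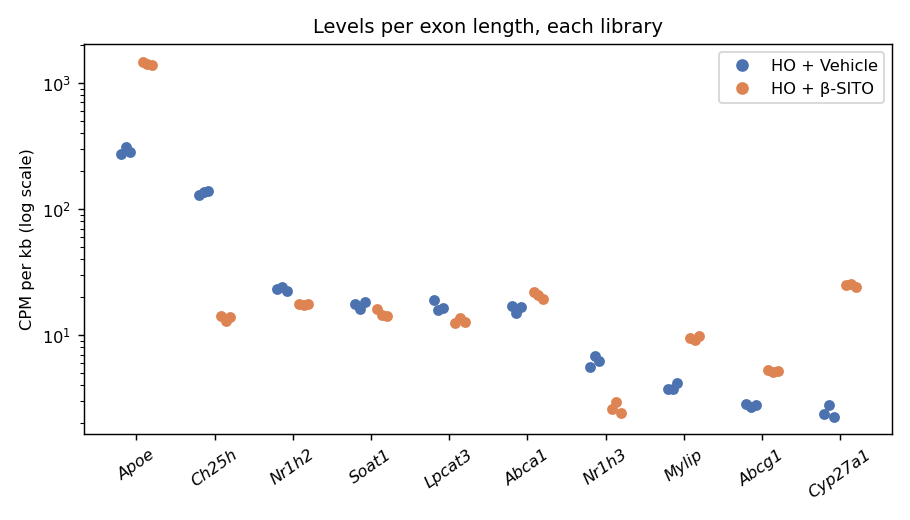
CPM per kb of exon (vertical axis, log scale) for the 10 genes in each library, ordered by the mean of the HO + Vehicle group. Ch25h falls from 135.3 to 13.7 CPM per kb and Cyp27a1 rises from 2.46 to 24.8 CPM per kb, while Apoe is the highest in both groups.

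To place the 10 genes in their pathway, 11 lists of related genes were counted with the same calls, beside the 12.8% of all genes tested that were called higher and the 10.1% called lower. Among the other LXR target genes, 5 of 16 tested were called higher and 0 lower. Of the 5, Apoc1, Abcg4 and Cd5l passed the filter on low counts only through the β-SITO libraries and so could only be called higher. Among the 13 genes that passed it in both groups, 2 (Pltp and Mertk) were called higher. Pltp, which transfers phospholipid between lipoproteins, had 93.6, 87.6 and 84.9 CPM against 204.8, 197.7 and 181.2 CPM (log2 fold change 1.13, adjusted p = 4.10e-10). Mertk, a receptor for the uptake of dead cells, had 16.5, 12.8 and 14.3 CPM against 35.2, 32.2 and 29.7 CPM (1.16 on the log2 scale, adjusted p = 6.28e-08). Srebf1, the main regulator of fatty acid synthesis, had 104.1, 90.2 and 91.0 CPM against 51.6, 52.3 and 54.3 CPM (log2 fold change -0.85, adjusted p = 2.57e-08), which did not reach 2-fold. It was 1 of 4 genes of this list that were lower at an adjusted p under 0.05 alone, beside 9 that were higher. The 9 include Apoc1, Abcg4 and Cd5l, which could only come out higher. At an adjusted p under 0.05 alone, 33% of all genes tested were higher and 33.8% lower.

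Of the 9 genes on the sterol sensing list, 7 were called lower and 0 higher (list median -1.64 on the log2 scale). It covers SREBP2, its control and cholesterol synthesis. Idi1, an enzyme of isoprenoid synthesis (-2.20), and Insig1, which retains SREBPs in the endoplasmic reticulum (-2.11), fell most. On the list of enzymes and receptors that handle oxysterols, 3 of 9 tested genes were called higher and 2 lower, or 1 of 7 and 2 of 7 among those that passed the filter in both groups. Cyp7b1, which inactivates side-chain oxysterols, had 74.3, 71.5 and 77.3 CPM against 9.92, 7.76 and 8.33 CPM (log2 fold change -3.10, adjusted p = 8.60e-14). Cyp39a1, an oxysterol hydroxylase, rose (1.82, adjusted p = 9.10e-08). Gpr183, the receptor by which immune cells follow a gradient of a Ch25h and Cyp7b1 product, had 2, 3 and 2 counts in V1 to V3. In T4 to T6 it had 118, 119 and 113 counts. In CPM these were 0.13, 0.19 and 0.12 against 6.06, 6.69 and 5.88. Its summed level was 42.4 times as high with β-SITO (95% exact binomial interval 20.4 to 106.3, for counting error only). Gpr183 passed the filter on low counts only through the β-SITO libraries, so its call could only be a higher one.

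Meanwhile, transporters and carriers were mixed. Of 14 other ABC lipid transporters, 6 were called higher and 0 lower, or 4 of the 11 that passed the filter in both groups. Abca6 (3.43), Abca8a (3.17), Abca9 and Abca8b lie next to each other on chromosome 11 from 109823016 to 110142602 and are close paralogs, so reads may be shared among them. Within the cell, 1 of 15 cholesterol transport genes was called higher and 4 lower (median -0.29). Cav1, the caveolar protein (2.30), rose, whereas Tspo, the mitochondrial sterol protein (-2.22), and Npc2, the lysosomal cholesterol carrier (-1.39), fell. Of 11 tested lipoprotein receptors and regulators, 1 was called higher (Sort1, 1.47) and 3 lower, with the scavenger receptor Olr1 furthest down (-5.45, adjusted p = 1.81e-15). Of 7 tested genes for apolipoproteins and plasma lipid transfer, Pltp was called higher and 5 were called lower (4 of the 6 that passed the filter in both groups), with Lipg, endothelial lipase (-6.50), and Apod (-4.68) furthest down. 

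Among 12 oxysterol-binding proteins, 1 was called higher (Osbpl6, 1.22) and 0 lower, and 1 of 11 tested genes of sterol esterification and phospholipid remodelling was called higher (Ces1d, 2.63) and 2 lower (Pla2g4a, -2.73, and Soat2, the paralog of Soat1, -1.21; median 0.27). Since Ch25h is known to respond to interferon, a list of interferon and NF-κB signal genes was counted beside it. Of its 14 tested genes, 8 were called lower and 0 higher (median -1.39), with Irf7 (-6.85) and Tlr3 (-4.12) furthest down. Ifnb1, the gene for interferon β, had at most 1 count in any library.

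**Figure D4:**
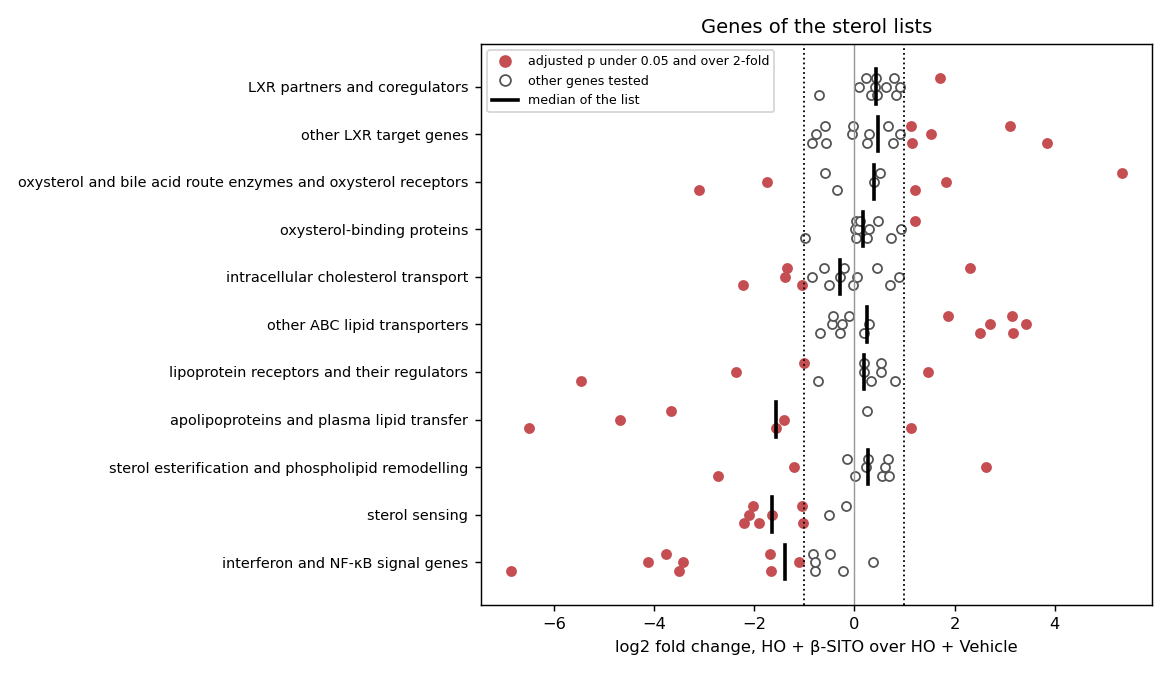
Log2 fold change, HO + β-SITO over HO + Vehicle, of each tested gene (points) in the 11 lists (rows), with filled points for genes called, thick lines for list medians and dotted lines at a change of 2-fold. The medians of the sterol sensing list (-1.64) and the interferon list (-1.39) lie to the left of 0, and the lists include genes that passed the filter on low counts only through 1 group.

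The 5 called members were called under all 14 alternative settings, and no member changed direction under any of them. With glmTreat, which tests against a 2-fold change, Nr1h3 passed narrowly (adjusted p = 0.0485). The other called members had an adjusted p of 0.00331 (Mylip) or less in that test. Without T4, the library with the lowest cardiomyocyte markers, the same 5 members were called. The exact two-sided permutation test of 3 libraries against 3 gave p = 0.1 for 9 members, the smallest p it allows, and p = 0.2 for Soat1, so evidence for single genes rests on the model across genes. Nothing in the labels says that the libraries of a group came from separate cultures, and p-values measure only the spread between these libraries.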

How the data were processed

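RNA was sequenced as paired-end reads from 6 libraries of hypoxic NMCMs. The authors deposited raw counts per gene without normalization, made with HISAT2 and featureCounts on GRCm39 per the submitters' processing notes. Versions, strand setting and read filters are not given in the sources used here. The study's methods name an ABclonal library kit and the sample records an Illumina one.

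From these counts, genes were filtered with filterByExpr, normalized with TMM and tested with edgeR 4.0.16 (R 4.3.3, quasi-likelihood test, Benjamini-Hochberg adjustment), with the group as the only term, and called at the study's criteria for size and adjusted p. SEs are the log2 fold change over the square root of the F statistic. The study used DESeq2, here an alternative (version 1.42.0) with limma-voom (3.58.1), glmTreat, other normalizations, other filters and each library left out. Exon lengths are unions of GENCODE vM21 exons, an annotation of GRCm38, matched by gene identifier. No library was a copy of another in its group. The chi-square per degree of freedom was 1.95 for T5 and T6 and 4.6 to 9.1 for the other pairs within a group. Such a check cannot tell whether libraries came from separate cultures.

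The members, lists and tests were chosen with earlier results of these data known. All members are named, and from each list up to 2 called genes per direction with the largest change, at least 20 counts on average and groups that did not overlap, plus Rxra, Rxrb, Rxrg, Srebf1, Vldlr and Gpr183. Some genes that this rule names are not reported here. Lrp8, Ifnb1, Abca8b, Abca9, Apoc1, Abcg4, Cd5l and the macrophage markers named were picked after their values were seen.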

Additional observations from a re-analysis of the deposited data

How the results depend on the processing

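The number of genes called across the table was 3380 and ranged from 2442 with glmTreat to 4213 without a filter, and from 3467 to 3610 with each library left out. The 5 called members were the same genes in all 14 alternatives, and Abcg1 was added with library size only and with the upper quartile. At an adjusted p under 0.05 alone, 10 members passed, against 5 with glmTreat, which by its construction tests against a 2-fold change. Leaving out 1 library moved the log2 fold change of Nr1h3 between -1.28 and -1.16, of Ch25h between -3.33 and -3.24, of Cyp27a1 between 3.29 and 3.43, of Apoe between 2.28 and 2.36 and of Mylip between 1.26 and 1.36. The ratio of Nr1h2 to Nr1h3 per kb of exon moved from 3.76 to 5.37 in the HO + Vehicle group with the basic annotation, since the exon lengths differ. With library size only, 63.9% of the called genes were higher, and with the upper quartile 63.7%, against 55.9% with TMM. Of the lists, the other LXR targets had 5 higher calls, against 3 with glmTreat, 4 with DESeq2 and 6 with library size only or the upper quartile. The oxysterol-binding proteins had 1, against 0 with glmTreat and 2 with library size only, with the upper quartile, or without V2 or T4. That list had 0 lower calls, against 1 without V2, T5 or T6, and the other ABC transporters 0, against 1 without T5. The LXR partners and the intracellular transport genes each had 1 higher call, against 2 with library size only or the upper quartile, and the esterification genes had 2 lower calls, against 1 with glmTreat. The 7 lower calls of the sterol sensing list became 5 with library size only, the upper quartile, glmTreat or without V1, and 6 without T6. Lower calls ranged from 2 to 3 for lipoprotein receptors, 4 to 5 for apolipoproteins, 3 to 4 for intracellular transport and 7 to 8 for interferon genes, and higher calls from 2 to 3 for the oxysterol list and 3 to 6 for smooth muscle markers. The cause was not tested. No paired analysis was possible because the groups share no replicate numbers. The Abca1 window with a DR4 match at up to 3 mismatches, a limit chosen after seeing the data, made 1 of the 12 windows, against 0 at up to 2. The 3 closest profiles of Nr1h3, Abca1 and Ch25h were the same 9 genes with a prior count of 0.5. With 3 libraries a group, depth limits genes such as Gpr183 and Rxrg more than any member, whose lowest library held 79 counts.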
